A study of Mus musculus with 6 samples.

Results

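Indirect pathway striatal neuron-like nuclei were selected on raw UMI counts (UMIs, the tagged mRNA molecules counted per gene and nucleus) in single-nucleus RNA libraries of mouse brain. A barcode entered the indirect gate with at least 500 genes, at most 5% mitochondrial UMIs, and at least 5 UMIs summed over Pde10a, Rgs9 and Ppp1r1b. It also needed at least 2 UMIs summed over Drd2, Adora2a and Gpr6, and none of Drd1, Isl1 and Pdyn. At most 1 UMI of Slc17a7 was allowed, and at most 1 of Aqp4 and Slc1a3 together. The gate held 883 nuclei of 40685 that passed the first pair of limits and of 42589 barcodes. The libraries came from brains of wildtype C57BL/6 mice, 3 after sham surgery and 3 after 5/6 nephrectomy, a model of chronic kidney disease, with tissue taken 6 weeks later. Age is not given in the labels. The design text speaks of cortical cells, whereas the gate holds markers of the striatum. The labels do not say that each library came from its own animal, so a p-value here measures the spread between these 6 libraries.

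The striatum sends its output through GABAergic projection neurons of the direct and the indirect pathway. Indirect pathway neurons reach the external pallidum, make enkephalin from Penk, and carry the Gi-coupled dopamine receptor D2 (Drd2), which lowers cyclic AMP, beside a Gs-coupled adenosine receptor (Adora2a), which raises it. Direct pathway neurons carry the D1 receptor (Drd1) with dynorphin (Pdyn) and substance P (Tac1). In the GRCm38 build, the protein-coding genes that define the gate lie at chr9:49340627-49408177 on the plus strand (Drd2), chr10:75316877-75334784 on the plus strand (Adora2a) and chr10:41069977-41072285 on the minus strand (Gpr6, an orphan receptor that raises cyclic AMP).

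Of these nuclei, 126, 79 and 286 came from the sham libraries, in the order of their numbers, and 116, 124 and 152 from the nephrectomy libraries. Their median depth was 6729.5, 5021 and 3302.5 UMIs in sham and 6025, 3890.5 and 4458.5 in nephrectomy, and their UMIs summed to between 428206 and 1053791 per library. Sham 3, with the most nuclei, was the shallowest, and the groups overlapped in depth. A doublet score called 67 of the 883 nuclei (7.59%), against 8.18% of all 40685 that passed the first pair of limits. Of these 67, 41 were in sham 3, which is 14.3% of its gated nuclei against 11.8% of its nuclei past the same limits. The share called per library was set by its barcode count, which was largest in sham 3. Over all libraries 169 barcodes occurred in more than 1 library; 5 of the 883 gated nuclei carried such a barcode, and none was gated as indirect in more than 1 library. For comparison a mirrored direct gate held 1471 nuclei. It needed at least 2 UMIs summed over Drd1, Isl1 and Pdyn and none of Drd2, Adora2a and Gpr6, other limits equal.

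Within the 5311 nuclei that met the Pde10a, Rgs9 and Ppp1r1b limit and the limits on Slc17a7, Aqp4 and Slc1a3, the receptor genes left few nuclei on both sides. The indirect gate took 16.6% of these striatal nuclei and the direct gate 27.7%, and 24.4% had no UMI of either set. At least 2 UMIs of both sets occurred in 77 nuclei (1.45%), with a median depth of 8367 UMIs and 16 called doublets (20.8%). Just inside the limit, the 321 nuclei with a Drd2, Adora2a and Gpr6 sum of 2 had a Penk UMI in 76.3% of cases. Just outside it, the 503 nuclei with a sum of 1 and none of the opposite set had one in 60.6%. At a sum of 5 or more, 89.0% of 219 nuclei had a Penk UMI, at a median depth of 5986 UMIs against 3788 at a sum of 2. At the limit on Pde10a, Rgs9 and Ppp1r1b, 16 nuclei stood inside with a sum of 5 and 19 outside with a sum of 4. Another 124 nuclei were left out by 1 UMI of Drd1, Isl1 or Pdyn.

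The 3 receptor genes were seldom all read in 1 nucleus. Adora2a gave a UMI in 81.3% of the 883 nuclei, Drd2 in 79.3% and Gpr6 in 40.1%. Drd2 and Adora2a were read together in 61.3%, all 3 genes in 21.1%, and 1 gene alone met the limit in 20.4%. All 3 were read in 39.7% of nuclei of the library with the highest share and 10.5% of the one with the lowest. Summed levels in CPM (UMIs of a gene per 1000000 UMIs of the gate) are conditioned by the gate and are given without a test. Drd2 stood at 307, 287 and 325 CPM in sham and 234, 317 and 298 in nephrectomy. Adora2a stood at 353, 238 and 387 CPM in sham and 241, 321 and 367 in nephrectomy, and Gpr6 at 133, 107 and 95.8 against 66.4, 131 and 122. The groups overlapped for each of the 3 receptors, and nephrectomy 1 held the lowest Drd2 and Gpr6 level.

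Penk, the enkephalin precursor (chr4:4133531-4138819, minus strand), took no part in the gate. It stood at 1087, 518 and 489.7 CPM in sham and 537, 543 and 879 CPM in nephrectomy, against 26.8 to 102 CPM over the 6 direct gate sums. The lowest indirect library was thus above the highest direct one, while sham and nephrectomy overlapped. A Penk UMI was found in 94.4%, 78.5% and 68.2% of indirect nuclei in sham and in 87.1%, 87.1% and 87.5% in nephrectomy. The same share was 11.3% to 43.7% in the direct gate. It was 6.57% to 44.9% in nuclei with at least 3 Slc17a7 UMIs and at most 1 UMI of Pde10a, Rgs9 and Ppp1r1b together. These excitatory neuron-like nuclei, limited in striatal UMIs, are given here as a background. Nephrectomy 1 gave the highest share in both the direct gate and these Slc17a7 nuclei. There the Slc17a7 nuclei had a median of 1406.5 UMIs, against 6025 in the indirect gate.

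The contrast with the direct gate was built into the rule, so it is described here and not tested. Among genes outside the gate with a mean of at least 50 CPM over both gates and the same direction in all 6 libraries, Penk had the largest difference above the direct gate, 3.39 in log2(CPM + 1) averaged over the 6 libraries (range 2.39 to 4.23). Grik3, a kainate receptor subunit, followed at 2.90, with 90.3 ± 16.7 CPM in the indirect and 12.6 ± 6.49 CPM in the direct gate (mean ± SD, n = 6 libraries). Nt5e, the ecto-enzyme that makes extracellular adenosine, stood 1.60 higher, at 78.7 ± 22.7 against 24.7 ± 2.95 CPM. Further genes on this side were the glucuronyltransferase B3gat1 (1.26), the calcium-binding nucleobindin Nucb2 (1.12), Gucy1a1, a subunit of the nitric oxide receptor guanylate cyclase (1.10), Necab1 (1.06), the sarcoglycan Sgcz (1.01), the calcium sensor Hpca (0.89) and the antisense transcript Gm10848 (0.89). All 10 were higher in the indirect gate of each of the 6 libraries, as the rule for naming them required.

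Of the 8 indirect pathway markers listed from outside the gate, each had a positive difference in all 6 libraries. Upb1 (4.73) and Gpr52 (3.58) differed by more than Penk, but their mean over both gates was under 50 CPM. Gpr52, a Gs-coupled orphan receptor, stood at 95.3, 81.7 and 83.5 CPM in sham and 50.1, 116 and 85.3 in nephrectomy, against 3.68 to 8.13 CPM in the direct gate. Sp9, a transcription factor of developing indirect pathway neurons, stood at 49.9, 58.4 and 40.8 CPM in sham and 31.2, 70.8 and 45.4 in nephrectomy, against 4.30 to 10.5 CPM. Upb1, an enzyme of pyrimidine breakdown, stood at 64.3 ± 23.3 CPM against 1.80 ± 1.57. It is a neighbour of Adora2a, at chr10:75401115-75441679 on the same strand. Adk, which clears adenosine, stood at 69.8 ± 13.8 against 23.9 ± 5.73 CPM, and the receptor phosphatase Ptprm at 46.0 ± 7.68 against 15.5 ± 2.75. Penk and Grik3 are given above, and Plxdc1 differed by 1.17 (n = 6 libraries for each of these means).

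On the other side stood genes of the direct pathway and of other striatal neurons. Lingo2, a leucine-rich repeat membrane protein, differed by -3.27 and Tac1, the substance P precursor, by -3.23, with Tac1 at 34.2 ± 20.8 CPM in the indirect and 278 ± 85.5 CPM in the direct gate. Adarb2 (-2.89), the collagen gene Col11a1 (-2.36), Gnb4 (-1.94) and the transcription factor Foxp2 (-1.85) came next. The neuregulin receptor Erbb4 (-1.82), Gpr26 (-1.78), Otof (-1.61) and Sfxn1 (-1.54) completed the 10 largest. Each was lower in all 6 libraries, as the same rule required. Genes shared by all striatal projection neurons differed less. Adcy5, the adenylyl cyclase both receptors act on, stood at 591 ± 87.4 against 545 ± 95.3 CPM, Bcl11b at 393 ± 71.3 against 361 ± 64.3, and Foxp1 at 1193 ± 186 against 804 ± 75.0. The GABA-synthesising enzyme Gad1 stood at 266 ± 51.4 against 234 ± 33.8 CPM.

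**Figure D1:**
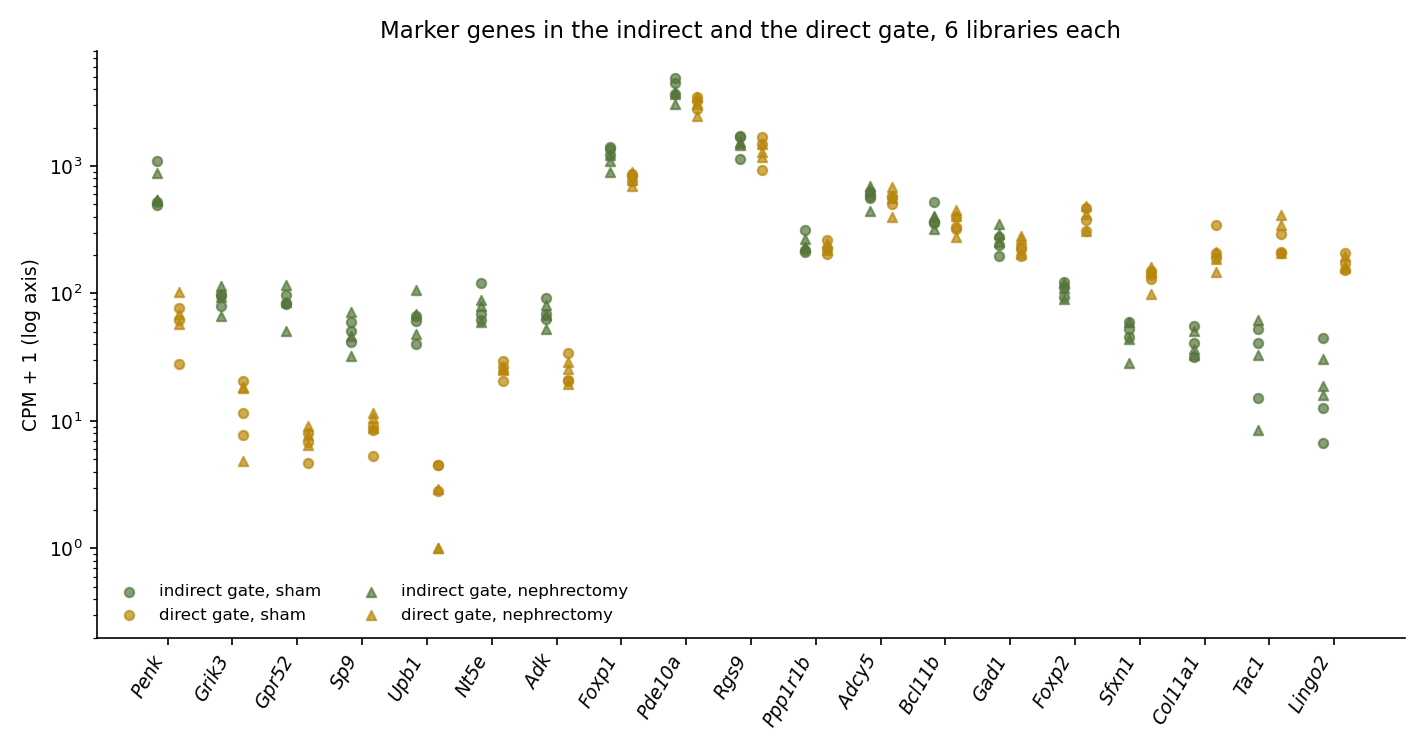
Level of 19 genes in the indirect (green) and the direct gate (ochre), in CPM + 1 on a log axis, with 1 point per library (circles sham, triangles nephrectomy). The Penk points of the indirect gate all lie above those of the direct gate, the order is the opposite for Tac1 and Lingo2, and the points of Ppp1r1b, Adcy5 and Gad1 overlap.

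Outside the striatal genes the gate limits only Slc17a7, Aqp4 and Slc1a3, and markers of other cell types were still read in it. Chat and Slc5a7, which define the cholinergic interneurons that also carry Drd2, gave 20 and 5 UMIs over all 883 nuclei. Slc17a7, allowed up to 1 UMI, was read in 18.5% of nuclei, from 5.26% to 50.9% by library, and stood at 80.0 CPM in nephrectomy 1. Aqp4 or Slc1a3, allowed up to 1 UMI together, was read in 13.25% of nuclei, from 2.42% to 25.9% by library. Astrocyte markers summed to 645 to 1084 CPM in sham and 736 to 957 in nephrectomy, of which Slc4a4 alone gave 351 to 559 CPM. Microglia markers, which the gate does not limit, summed to 25.0 to 69.3 CPM in sham and 27.1 to 55.0 in nephrectomy. Oligodendrocyte markers summed to 235, 724 and 1007 CPM in sham and 1213, 518 and 1510 CPM in nephrectomy, so the groups overlapped and sham 1 was the lowest. All 8 of the 10 oligodendrocyte markers that passed the low-count filter had a positive log2 fold change, with a median of 0.90 in the indirect and 0.65 in the direct gate. Their part in the nephrectomy comparison was not tested.

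Indirect nuclei made up 4.91%, 2.62% and 2.09% of kept nuclei in sham and 0.949%, 2.87% and 3.12% in nephrectomy. The means were 3.21% ± 1.50 and 2.31% ± 1.19 (SD, n = 3 libraries per group), with an exact 2-sided permutation p of 0.6, adjusted to 0.7 over 4 share results. Of striatal nuclei they made up 23.8%, 14.8% and 13.1% in sham and 14.9%, 23.4% and 20.03% in nephrectomy (exact permutation p = 0.7, adjusted p = 0.7). In the single libraries the exact 95% binomial interval of the second share spanned 20.2% to 27.6% in sham 1 and 11.7% to 14.6% in sham 3, which covers counting error only. The highest and the lowest of these striatal shares were both in sham libraries. The difference in the share of kept nuclei, -0.89 percentage points, was -0.041 without sham 1, and that of striatal nuclei, 2.20, was 5.47 without sham 1 and 0.146 without sham 3. In nephrectomy 1 the kept nuclei had a median of 1001 UMIs, against 2008 to 5353.5 in the other libraries. Among nuclei with at least 1000 genes its share of kept nuclei was 2.89%, against 3.07% to 5.23% in sham. The group difference at that limit was -0.36 percentage points (exact permutation p = 0.8). The region dissected from each brain is not stated in the labels, and the part of region or depth was not tested.

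The ratio of indirect to direct nuclei did not overlap between the groups. It was 0.570, 0.497 and 0.559 in sham and 0.695, 0.80 and 0.591 in nephrectomy. On the log2 scale this is -0.89 ± 0.11 against -0.54 ± 0.22 (SD, n = 3 libraries per group), with an exact permutation p of 0.1, the smallest that 3 against 3 libraries can give, and an adjusted p of 0.4. When every nucleus was thinned to 2000 UMIs before gating, a step that left out 19455 shallower kept nuclei, 58 of them indirect, the groups overlapped and the difference was 0.17 in place of 0.35 (exact permutation p = 0.7). The share of indirect nuclei with a Penk UMI averaged 80.4% ± 13.2 in sham and 87.2% ± 0.241 in nephrectomy (exact permutation p = 0.4, adjusted p = 0.7). The difference of 6.85 percentage points was 13.9 without sham 1 and 0.759 without sham 3. For this share the nuclei were gated at full depth, and those with at least 2000 UMIs were then thinned to 2000. It was then 63.0% ± 11.2 in sham and 69.1% ± 8.44 in nephrectomy.

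**Figure D2:**
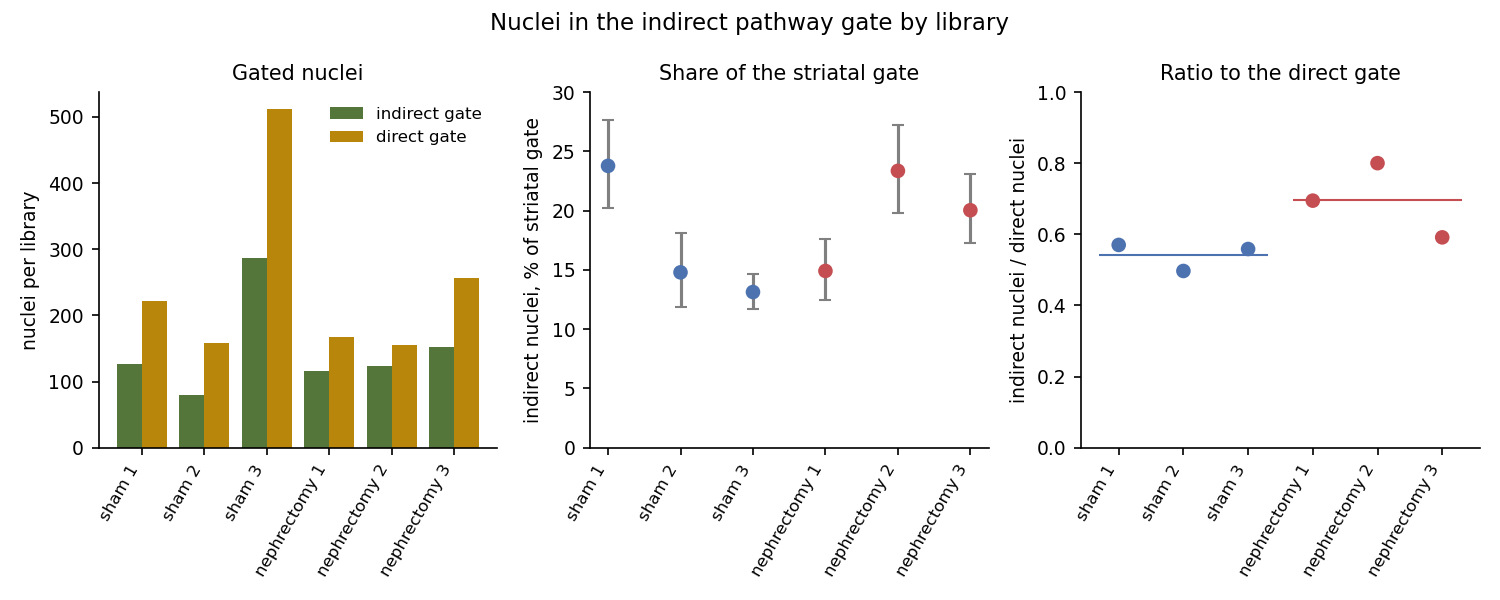
Left, nuclei per library in the indirect and the direct gate; middle, indirect nuclei as a percentage of striatal nuclei with exact 95% binomial intervals; right, ratio of indirect to direct nuclei, with a line at each group's mean (sham blue, nephrectomy red). The sham ratios lie between 0.497 and 0.570, below the lowest nephrectomy ratio of 0.591, while the shares in the middle overlap.

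After nephrectomy no gene of the indirect gate passed the test. UMIs were summed per library and 9141 genes were compared with edgeR's quasi-likelihood test, with Benjamini-Hochberg adjustment over all of them. At an adjusted p under 0.05 it called 0 genes (0.0%), and the DESeq2 Wald test and limma-voom also called 0. At an unadjusted p under 0.05 there were 335 genes by edgeR (3.66% of those tested), 122 by DESeq2 and 405 by limma-voom. The CPM values of the groups did not overlap for 840 genes (9.19%), higher after nephrectomy for 531 (5.81%) and lower for 309 (3.38%). Over all genes 4506 log2 fold changes were positive and 4635 negative, with a median of -0.01.

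The lowest p belonged to Tpt1 (chr14:75845093-75848525, plus strand), which encodes the translationally controlled tumour protein. It stood at 64.7, 84.1 and 89.2 CPM in sham and 165, 160.3 and 162 CPM in nephrectomy. Every nephrectomy library was thus above every sham library. The log2 fold change was 0.99 ± 0.18 (SE), with an edgeR adjusted p of 0.255, which ran from 0.0602 to 0.999 over 16 other settings while the fold change stayed between 0.89 and 1.07. In the direct gate of the same libraries it was 0.57 ± 0.19.

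The other 9 genes with the lowest p and a mean of at least 20 CPM each had an adjusted p of 0.999 by edgeR, and none overlapped between groups. Toward higher values in nephrectomy stood Polr1d, a subunit shared by RNA polymerases I and III, at 12.5 ± 0.986 in sham and 32.3 ± 2.86 CPM in nephrectomy. Uqcrh, a subunit of respiratory complex III, stood at 40.9, 23.4 and 29.4 CPM in sham and 82.7, 70.8 and 52.3 in nephrectomy (log2 fold change 1.03 ± 0.28). Fth1, the ferritin heavy chain that stores iron, stood at 197, 255 and 329 CPM in sham and 393, 371 and 444 in nephrectomy (0.58 ± 0.17, and 0.76 ± 0.17 in the direct gate). Eloc, a subunit of ubiquitin ligase and elongin complexes, stood at 32.5 ± 1.94 and 61.9 ± 5.91 CPM, and Shisa4 at 16.5 ± 5.24 and 38.2 ± 4.49 CPM. Mal, a proteolipid of myelin, stood at 13.6, 16.4 and 38.0 CPM in sham and 75.9, 46.6 and 50.9 in nephrectomy. Beside it, oligodendrocyte markers summed to 235 to 1007 CPM in sham and 518 to 1510 CPM in nephrectomy, and their part in the Mal values was not tested.

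Toward lower values stood Wipf3, an actin regulator of the WASP-interacting family, at 186, 290 and 207 CPM in sham and 146, 151 and 140.3 CPM in nephrectomy (log2 fold change -0.67 ± 0.18). Arhgap18, a GTPase-activating protein, stood at 88.7 ± 13.9 and 54.2 ± 6.05 CPM, and Armt1, a protein methyltransferase, at 28.3 ± 2.88 and 12.9 ± 3.62 CPM (SD, n = 3 libraries per group throughout).

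**Figure D3:**
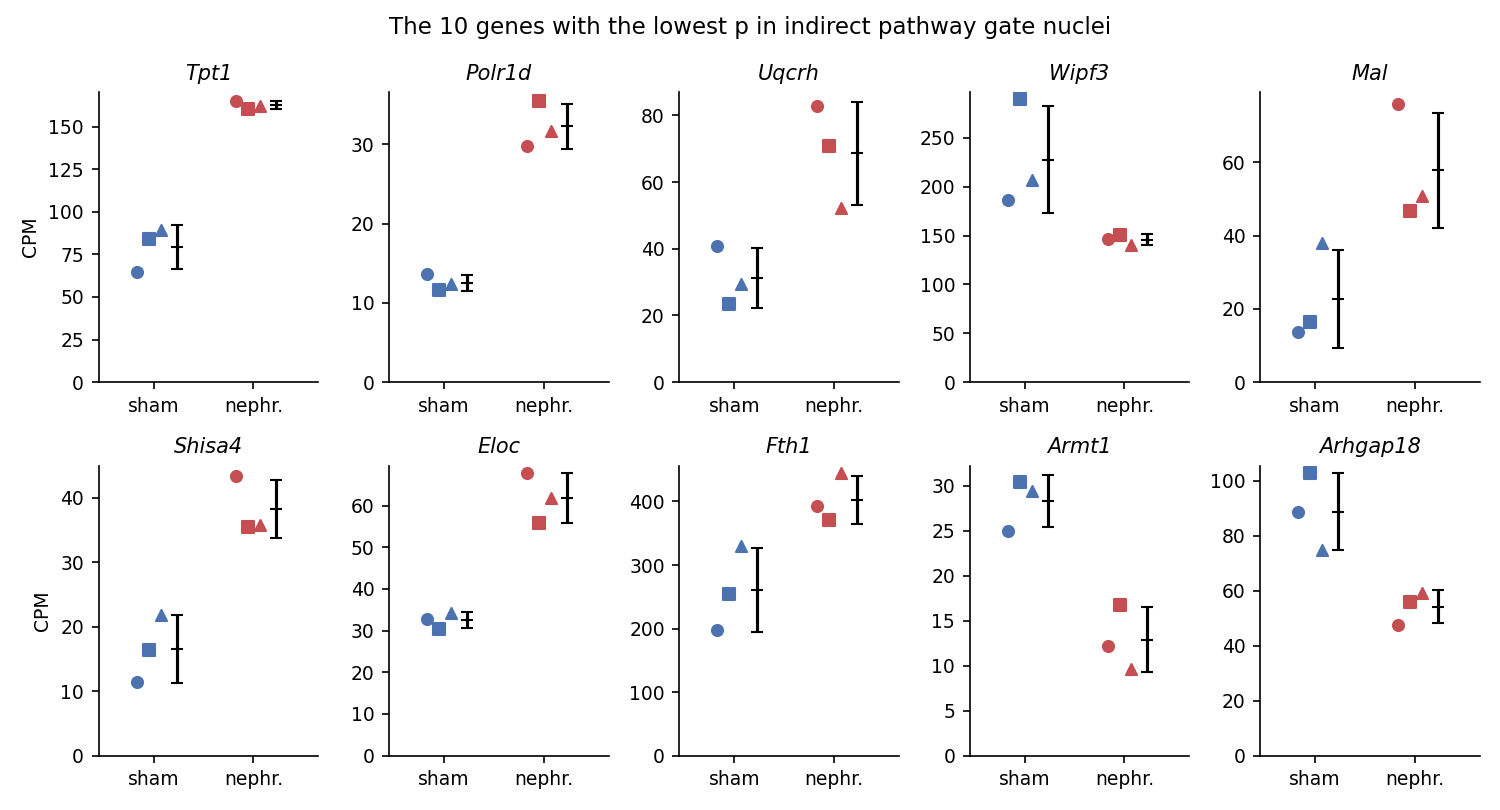
CPM in the indirect gate of the 10 genes with the lowest p and a mean of at least 20 CPM, 1 panel each with its own axis from 0. Points are libraries (circle, square and triangle for numbers 1 to 3, not treated as pairs) and bars show mean ± SD. The groups are apart in each panel, with Tpt1 at 64.7 to 89.2 CPM in sham and 160.3 to 165 CPM in nephrectomy, and no adjusted p was under 0.255.

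Gene lists are described by their counts and medians. None of their members passed the test, and the counts stand beside 49.3% positive log2 fold changes over all genes. Of 25 tested genes typical of striatal projection neurons, 4 were positive and 21 negative in the indirect gate, with a median of -0.14; in the direct gate 16 were positive and 10 negative, with a median of 0.02. Without nephrectomy 1 the median in the indirect gate was -0.05. The difference between the gates was not tested for the list as a whole. Foxp1, a transcription factor of these neurons, stood at 1398, 1357 and 1217 CPM in sham and 889, 1206 and 1089 CPM in nephrectomy, without overlap (-0.38 ± 0.15, edgeR adjusted p = 0.999). Phactr1, an actin and phosphatase 1 regulator, stood at 2128 ± 109 and 1813 ± 207 CPM (-0.29 ± 0.14), and the cyclic AMP phosphodiesterase Pde7b at 238 ± 53.2 and 175 ± 19.4 CPM (-0.51 ± 0.20). Pde10a, which the gate uses, stood at 4863, 4477 and 3644 CPM in sham and 3037, 3764 and 3689 in nephrectomy.

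The dopamine, adenosine and cyclic AMP list divided into 21 positive and 34 negative of 55 tested (median -0.06). The negative side includes the gate genes Drd2, Adora2a, Gpr6, Pde10a, Rgs9 and Ppp1r1b, whose levels are conditioned by the gate. In 7 of the 55 (12.7%) the groups did not overlap, 5 higher and 2 lower, against 9.19% of all genes. Gnal is the G protein alpha subunit that couples receptors such as Adora2a to adenylyl cyclase in striatum. It was 1 of the 2 lower genes, at 1017 ± 44.6 and 890 ± 49.1 CPM (-0.25 ± 0.14). Gnai1, an inhibitory alpha subunit, stood at 18.6 ± 10.1 and 38.4 ± 9.08 CPM, with overlap (0.89 ± 0.34). Of 17 tested neuropeptide genes 10 were positive (median 0.19), among them Chgb, a granin of dense-core vesicles, at 87.3 ± 31.3 and 136 ± 36.8 CPM (0.53 ± 0.25). For Penk the log2 fold change was -0.18 ± 0.42, and without sham 1 it was 0.37.

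Genes of GABA and glutamate transmission gave small values. Of 7 tested genes of GABA synthesis, release and uptake 4 were positive (median 0.22), with Gad1 at 236 ± 39.7 and 296 ± 48.3 CPM and Gad2 at 246 ± 21.3 and 297 ± 41.9 CPM. Of 18 GABA receptor and inhibitory postsynaptic genes 14 were negative (median -0.11), with the receptor subunit Gabra4 at 211 ± 30.1 and 175 ± 25.8 CPM. Of 44 glutamate receptor and postsynaptic scaffold genes 32 were negative, with medians of -0.07 in the indirect and -0.08 in the direct gate. The AMPA receptor subunit Gria2 stood at 4555 ± 954 and 3822 ± 411 CPM (-0.32 ± 0.17), and the metabotropic receptor Grm5 at 2124 ± 556 and 1667 ± 118 CPM (-0.42 ± 0.18), with overlap in both. Of 12 endocannabinoid and muscarinic genes 8 were negative (median -0.17). The cannabinoid receptor Cnr1 stood at 336 ± 27.9 and 295 ± 19.4 CPM (-0.24 ± 0.15), and the muscarinic receptor Chrm3 at 45.1 ± 15.5 and 30.4 ± 4.68 CPM (-0.69 ± 0.30).

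Among ion channels, 21 of 28 sodium and calcium channel genes were negative, with medians of -0.18 in the indirect and -0.16 in the direct gate. In 5 of the 28 the groups did not overlap, all lower, against 3.38% of all genes. Cacna1a, the pore of P/Q-type calcium channels, stood at 351, 343 and 322 CPM in sham and 241, 302 and 205 in nephrectomy (-0.50 ± 0.17, edgeR adjusted p = 0.999). Cacnb2, an auxiliary calcium channel subunit, stood at 558, 568 and 533 CPM in sham and 409, 451 and 437 in nephrectomy (-0.41 ± 0.14). Gm10848, which lies on the opposite strand within Cacnb2, stood at 406 ± 115 and 311 ± 38.9 CPM. Whether reads of the pair were mixed was not tested. Itpr1, the calcium release channel of the endoplasmic reticulum, stood at 547 ± 48.2 and 452 ± 26.6 CPM (-0.33 ± 0.15). Of 39 potassium and HCN channel genes 24 were negative (median -0.04), with Kcnn3, a calcium-gated channel, at -0.56 ± 0.26 and Kcnj3, an inward rectifier, at 0.88 ± 0.38.

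The series title points to the neuronal interleukin-1 receptor. Il1r1, its signalling chain, had 4 UMIs in sham 3 and 0 in the other 5 libraries, where a count of 0 allows up to 3.40 to 7.01 CPM. The adaptor Myd88 stood at 0 to 4.13 CPM, and both lay under the filter. Of 47 list members 20 were tested, 13 of them negative (median -0.11). The accessory chain Il1rap stood at 31.9 ± 5.64 CPM in sham and 43.4 ± 15.8 in nephrectomy (0.45 ± 0.30), Il1rapl1, a synaptic relative of the receptor, at 721 ± 223 and 581 ± 71.9 CPM (-0.38 ± 0.23), and the NF-kappa-B subunit Rel at 25.1 ± 4.20 and 13.9 ± 4.73 CPM without overlap (-0.93 ± 0.37).

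Of 17 immediate early genes 13 were positive (median 0.10, and 0.34 in the direct gate). Fos stood at 4.54, 7.01 and 14.2 CPM in sham and 14.9, 14.9 and 22.0 CPM in nephrectomy. These levels rest on few counts, 22 UMIs in sham and 35 in nephrectomy. Ier5 stood at 21.3 ± 2.23 and 34.6 ± 4.41 CPM, and Egr4 at 14.6 ± 6.96 and 29.0 ± 9.09 CPM. The list's median was 0.78 without sham 3 and -0.06 without sham 1, the library with the lowest list sum. Of 12 genes of corticosteroid reception and response 5 were positive (median -0.08). The glucocorticoid receptor Nr3c1 stood at 71.5, 58.4 and 86.4 CPM in sham and 92.1, 118 and 110.0 in nephrectomy, without overlap (0.47 ± 0.21, edgeR adjusted p = 0.999), and its target Fkbp5 at 53.0 ± 4.22 and 39.6 ± 14.2 CPM (-0.50 ± 0.28).

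Lists of housekeeping transcripts were one-sided. Of 81 tested cytoplasmic ribosomal protein genes 78 were positive (median 0.34), and in 18 the groups did not overlap, all higher, against 5.81% of all genes. Rps20 stood at 48.8, 65.4 and 90.2 CPM in sham and 98.9, 116 and 111 in nephrectomy (0.61 ± 0.22), and Rpl13 at 114 ± 26.1 and 174 ± 24.0 CPM (0.52 ± 0.19). Ribosomal protein genes, Fth1 and Tpt1 have processed copies elsewhere in the mouse genome, and how shared reads were assigned is not given in the sources used here. Of 81 nuclear genes of the respiratory chain 69 were positive (median 0.33), with 14 not overlapping, all higher, and Cox4i1 at 108 ± 25.8 and 170 ± 46.9 CPM (0.57 ± 0.21). Of 11 genes of ferritin and iron handling 9 were positive (median 0.12), with the ferritin light chain Ftl1 at 36.2 ± 9.42 and 54.7 ± 13.2 CPM. All 11 tested RNAs encoded by the mitochondrial genome were negative (median -0.36), but in 0 of the 11 were the groups apart. Their sum was highest in nephrectomy 2, at 2045 CPM, against 1413 to 2000 CPM in sham, and the median was -0.76 without that library and -0.14 without sham 1. Examples are mt-Nd3 at 27.5 ± 6.01 and 12.9 ± 8.30 CPM (-1.25 ± 0.42) and mt-Co1 at 420 ± 64.1 and 345 ± 110 CPM. Without nephrectomy 1 the respiratory chain median was 0.11. The direct gate of the same libraries gave medians of 0.38 (ribosomal), 0.37 (respiratory chain) and -0.40 (mitochondrial). The values moved with gene length as well: in the quintile of tested genes with the shortest genomic span 62.7% were positive (median 0.10), and in the longest 39.4% (median -0.06). The part of gene length, of the mitochondrial share or of RNA quality in these lists was not tested.

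**Figure D4:**
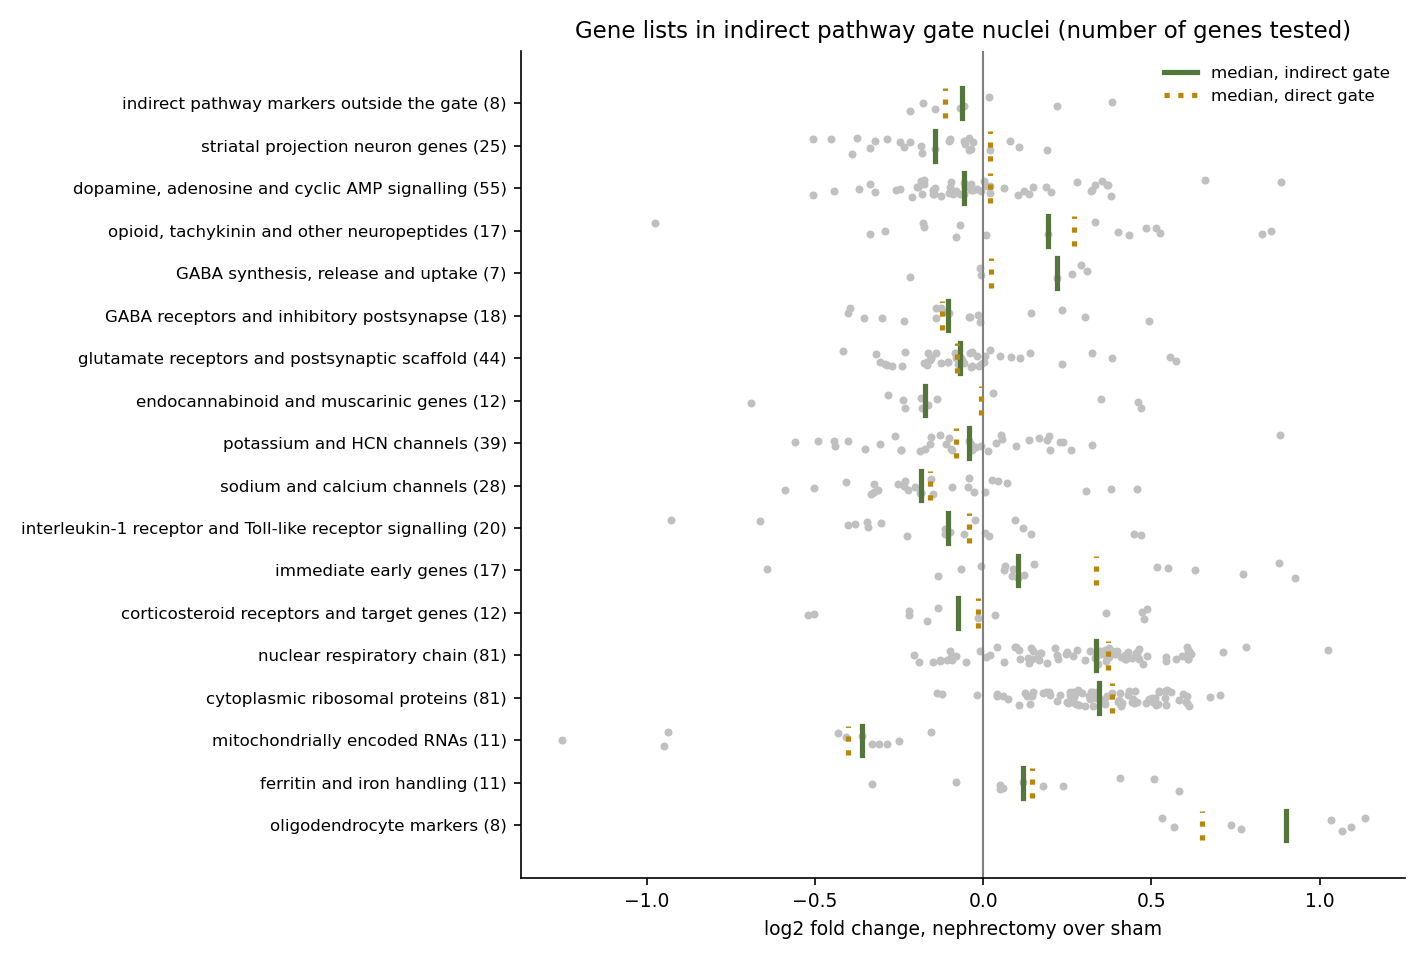
Log2 fold change of nephrectomy over sham in the indirect gate for each tested member of 18 gene lists (grey points, spread vertically for sight only), with the list median in the indirect gate (green) and in the direct gate (ochre, dotted). Ribosomal and respiratory chain medians lie at 0.34 and 0.33, mitochondrially encoded RNAs at -0.36, and the striatal projection neuron list at -0.14 against 0.02 in the direct gate.

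Whether nephrectomy values differed between the gates was tested as an interaction, with the library as a term, over 10618 genes. edgeR called 0 genes (0.0%), and 479 had an unadjusted p under 0.05 (4.51%). The lowest p belonged to Brinp3, which encodes a neural protein of the BMP/retinoic acid-inducible family. It stood at 112, 100.4 and 104 CPM in the indirect gate of sham and at 121, 95.1 and 142 in nephrectomy. In the direct gate it stood at 162, 121 and 146 CPM in sham and at 96.9, 71.8 and 101 in nephrectomy, without overlap. The interaction was 0.86 ± 0.17 (adjusted p = 0.0609 by edgeR, 0.0303 to 0.963 over 13 other settings). With sham 3, nephrectomy 1 or nephrectomy 3 left out, 3, 1 and 4 genes were called, none of them Brinp3. Next came R3hdm1 (0.32 ± 0.07), the axon guidance receptor Robo3 (-1.57 ± 0.37), the nitric oxide synthase Nos1 (2.40 ± 0.59) and the helicase Ighmbp2 (-2.10 ± 0.52), each with an adjusted p of 0.261. Nos1 stood at 1.86 to 20.3 CPM in the indirect gate, from 37 UMIs in all, and lay under the low-count filter when that gate was fitted alone. In the direct gate Nos1 stood at 26.8 to 33.8 CPM in sham and 4.06 to 13.4 CPM in nephrectomy. Ighmbp2 stood at 18.2, 25.7 and 20.9 CPM in sham and 6.78, 5.59 and 8.25 in nephrectomy in the indirect gate. These values came from 49 UMIs in sham and 14 in nephrectomy. In the direct gate Ighmbp2 stood at 6.98 to 14.6 CPM in sham and 17.1 to 19.0 CPM in nephrectomy. For Penk the interaction was -0.47, with an adjusted p of 0.995.

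**Figure D5:**
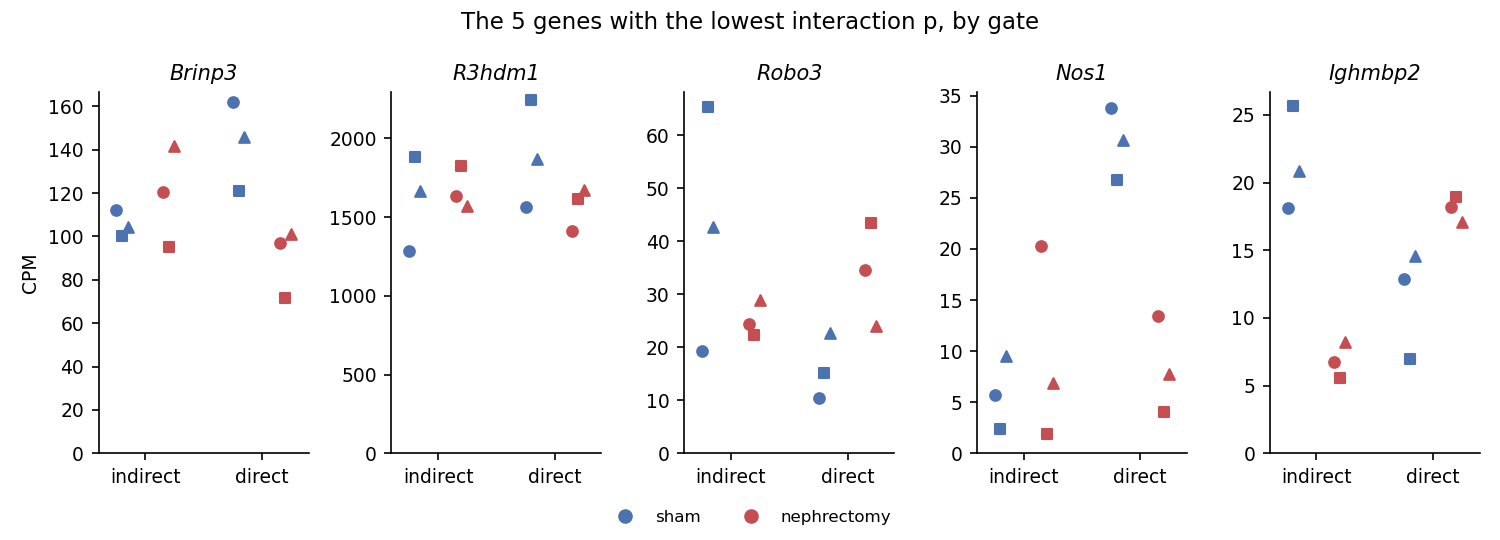
CPM in the indirect and the direct gate for the 5 genes with the lowest interaction p, 1 panel each with its own axis from 0; points are libraries (sham blue, nephrectomy red). For Brinp3 the nephrectomy points lie below the sham points in the direct gate, at 71.8 to 101 against 121 to 162 CPM, and overlap in the indirect gate.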

How the data were processed

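Flow-sorted nuclei were captured in droplets with a 3′ kit of chemistry 3.1, per the labels' protocols. Each library has 1 deposited matrix of raw UMI counts by gene and barcode, which the authors mapped to mm10, introns counted. Sources give different Cell Ranger versions, 3.0 (extract protocol), 2.1.1 (submitters' processing notes) and 6.0.1 (per the file headers), and the one used is unknown. Seurat 4.2.0 is named in the extract protocol for later steps, which were not used here.

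From the counts, gates were applied as stated and UMIs summed per library and gate. Genes were filtered with filterByExpr, scaled by TMM and tested with edgeR 4.0.16 (quasi-likelihood, robust) at an adjusted p of 0.05. DESeq2 1.42.0, limma-voom (limma 3.58.1), DESeq2 size factors, no filter, a replicate block, other gates, called doublets removed, equal nuclei and leaving out libraries were alternatives. Doublets were scored against 2 simulated doublets per nucleus and the top 0.8% per 1000 barcodes called; they were kept in the main result. Shares were compared with exact 2-sided permutation tests. The fits were tested on simulated data. Total UMIs per library ranged from 15691316 to 41532967. Coordinates came from GENCODE M21 by Ensembl ID.

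Members and gene lists were chosen with earlier results of these data known. Genes named are the gate genes, genes of interest, the 10 lowest p with a mean of at least 20 CPM, up to 4 per list with the lowest p, the 10 largest differences from the direct gate on each side (mean of at least 50 CPM over both gates), and the 5 lowest interaction p. Not every gene that the rule names is reported here. Any other gene was named after its values were seen.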

Additional observations from a re-analysis of the deposited data

How the results depend on the processing

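No gene of the indirect gate was called under any of 16 alternatives, replicates left out included (0 to 0). Labels give both groups the numbers 1 to 3. Deviations from the group mean correlated at -0.08, 0.09 and -0.05 between same-numbered libraries. Unlike-numbered libraries gave -0.207 to 0.244, the highest for sham 3 with nephrectomy 1. So few values cannot exclude a pairing, and the numbers were not treated as pairs in the main result. With a replicate block 0 genes were called. The interaction, with 0 genes called, gave 1 with DESeq2 size factors (Brinp3, adjusted p = 0.0482), 1 without a filter (Brinp3, 0.0303) and 7 in the 4 libraries with under 6000 barcodes (none of them Brinp3). Leaving out a library gave 0 to 4: 3 without sham 3 (Tcf4, Dlx6os1 and Elavl2), 1 without nephrectomy 1 (Qk) and 4 without nephrectomy 3 (R3hdm1, Pde1a and Robo3 among them), genes named here after their values were seen where the report does not name them. The causes were not tested.

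The difference in share of striatal nuclei was 2.20 percentage points and -1.22 after thinning to 2000 UMIs. With a library left out it ran from 0.146 to 5.47, that of kept nuclei from -1.45 to -0.041, and that of nuclei with a Penk UMI from 0.759 to 13.9. The log2 ratio to direct nuclei kept its sign under every alternative run (0.17 to 0.46). Penk turned to 0.181 with limma-voom and ran from -0.461 to 0.368 with a library left out. List medians turned in the 4 libraries for indirect pathway markers (0.015), dopamine and cyclic AMP genes (0.038) and neuropeptides (-0.035), with limma-voom for indirect pathway markers (0.063), and with equal nuclei for interleukin-1 receptor genes (0.022) and corticosteroid genes (0.059). With a library left out, medians that turned ran from -0.203 to 0.143 (indirect pathway markers), -0.043 to 0.347 (neuropeptides), -0.117 to 0.002 (potassium and HCN channels), -0.056 to 0.775 (immediate early genes), -0.186 to 0.038 (corticosteroid genes) and -0.047 to 0.256 (ferritin genes). Under all 16, medians kept their sign but varied for ribosomal (0.243 to 0.465), respiratory chain (0.108 to 0.425), mitochondrial (-0.763 to -0.135), sodium and calcium channel (-0.217 to -0.135) and striatal projection neuron genes (-0.226 to -0.053). With 79 to 286 nuclei per library, genes of few UMIs, Il1r1 among them, could not be tested.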
